A study of Mus musculus with 6 samples.

Results

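Kinesins, dyneins and myosins are the motor proteins that use ATP to move along microtubules or actin filaments. The set described here holds the genes of the deposited table whose symbol is Kif followed by a digit or c, or a numbered Klc (kinesin heavy and light chains), begins with Dync or Dynl or is a numbered Dctn (cytoplasmic dynein and its cofactor dynactin), or is Myo, Myh or Myl followed by a digit (myosin heavy and light chains). Partners such as Kifap3 and Mylk are outside it. This rule reads the symbol and no measured value, and it gives 75 of the 12968 genes of the table, of which 71 were abundant enough to be tested among 12549 tested genes. The libraries hold RNA from RiboTag immunoprecipitates, a method in which Cre recombinase switches a cell to a tagged Rpl22, so that its ribosomes and the RNA bound to them are captured by an antibody. In 3 mice the middle cerebral artery had been occluded for 1 h (MCAO, a model of ischaemic stroke), and 3 control mice had no occlusion. The middle section of the left brain hemisphere was taken after 3 days in both groups. The labels give no Cre driver, strain, sex, age or sham operation, while the series title names astrocytes. In both groups each library came from 1 animal, with 2 precipitations pooled, so a difference between the groups is read against the spread of 3 animals.

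Most kinesins walk towards the plus ends of microtubules, which in axons point away from the cell body, and cytoplasmic dynein with dynactin walks the other way. In brain these motors carry vesicles, mitochondria and RNA along the long processes of neurons and glia. Myosins work on actin. Myosin-2, built from paired heavy chains with essential and regulatory light chains, contracts the cell cortex, whereas the unconventional myosins of the other classes move membranes, tether organelles or shape protrusions.

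After the occlusion 4 of the 71 tested motor genes rose: Myo1f, a class 1 myosin of immune cells, Myl6 and Myl12b, a pair of nonmuscle myosin light chains, and Dynll1, a dynein light chain. None of the 71 was called lower in this main fit. Values are scaled read counts, that is, read counts divided by 1 factor per library, and a gene is called when limma on log2(value + 1) gives a Benjamini-Hochberg adjusted p under 0.05, two-sided, over all 12549 genes. Of all tested genes 3.08% were called, 2.3% higher and 0.789% lower, against 4 of 71 motor genes, or 5.63%, all 4 of them higher. Of these 4, Myo1f had a control mean of 3.16 and was abundant enough to be tested only through its MCAO libraries, so its call is partly fixed by the filter. With a mean of at least 50 required, 3 of 56 motor genes were called higher, where 272 of all 8376 genes were called in either direction. At an unadjusted p under 0.05, 12 of the 71 motor genes (16.9%) lay higher, where all genes gave 10.1%, and 4 (5.63%) lay lower, where all genes gave 9.16%. The count of 0 motor genes called lower was also 0 in edgeR on recovered reads and 1 in DESeq2, where Kifc2 was called. The libraries of the groups did not overlap for 18 motor genes (25.4%), close to the 24.9% of all genes. MCAO lay above in 10 of them (14.1%, where all genes gave 12.4%) and below in 8 (11.3%, where all genes gave 12.5%). Log2 changes, MCAO over control throughout, were positive in 32 motor genes and negative in 39, with a median of -0.03 beside -0.01 over all tested genes. For 52 of the 71 genes the 95% interval of the change lay within 1 log2 unit of 0, so a change beyond 2-fold was outside the interval for them.

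**Figure D1:**
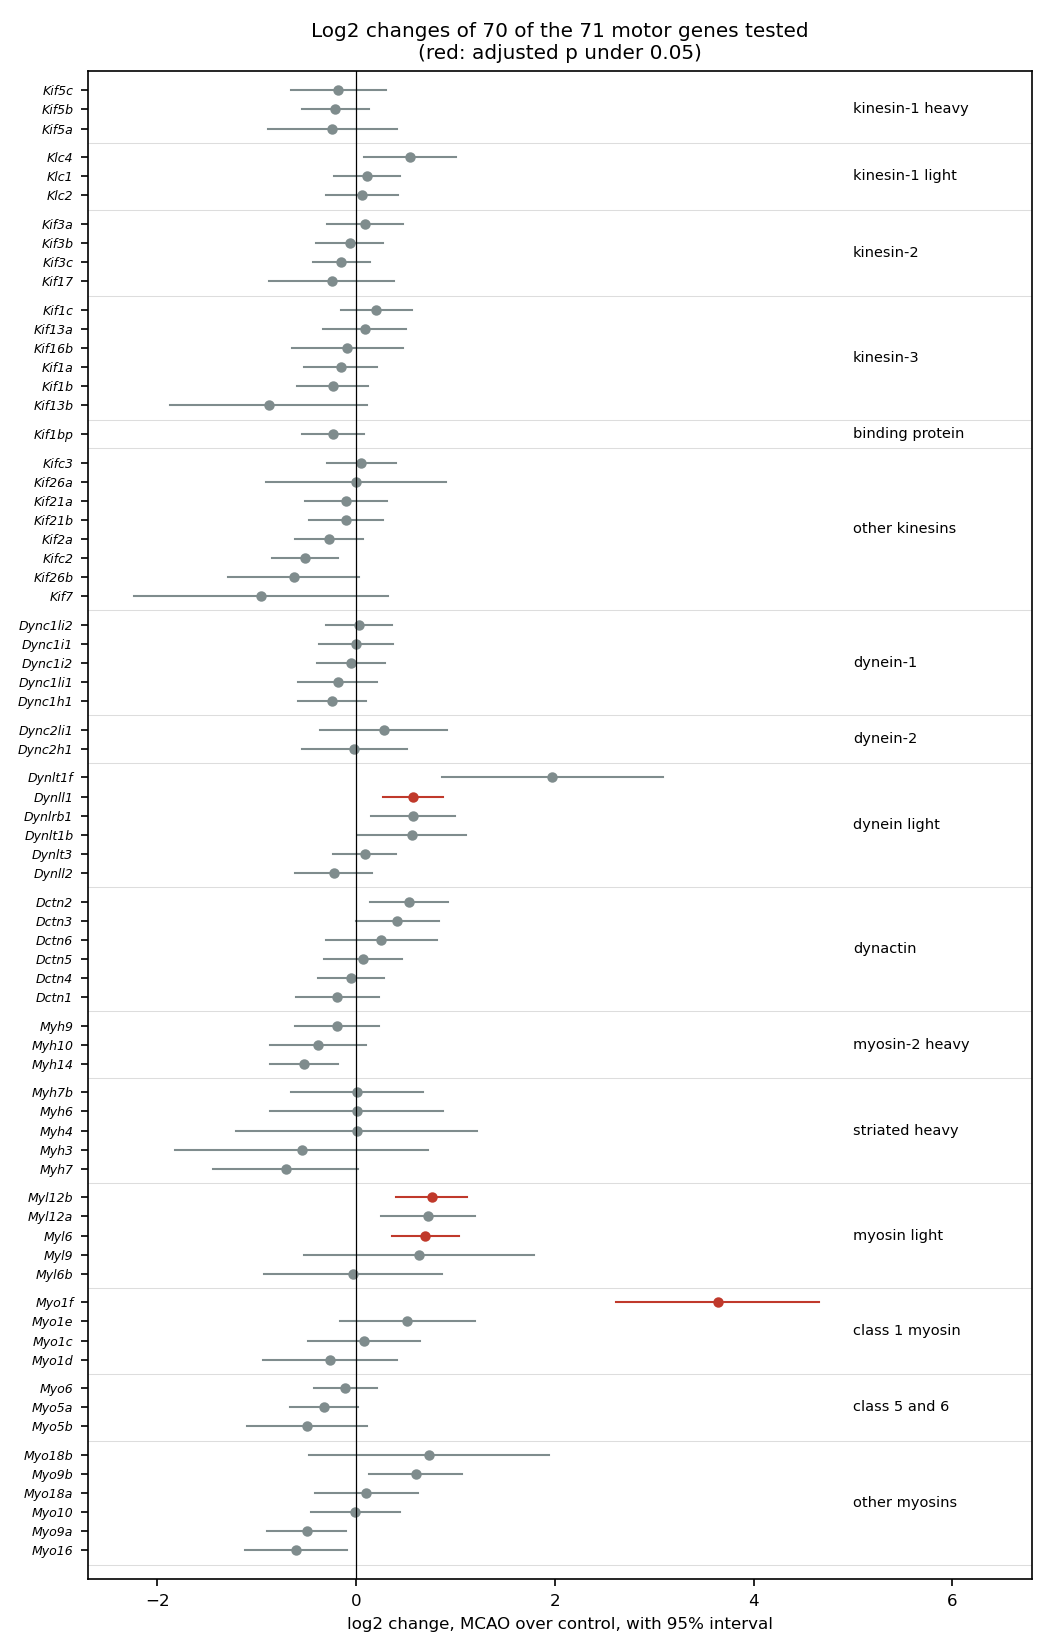
Log2 change, MCAO over control, of 70 of the 71 tested motor genes on the horizontal axis (log2(scaled reads + 1)), with bars for the 95% interval and genes grouped by role. The 4 called genes (red), Myo1f at 3.64, Myl12b at 0.76, Myl6 at 0.69 and Dynll1 at 0.57, lie right of 0, and most other intervals cross 0.

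Reads recovered from the scaling ranged from 882263 to 4567615 in the MCAO libraries and from 1538901 to 9519548 in the controls, and MCAO 2 and control 2 were the shallowest of their groups. The first principal component of all tested genes held 42.4% of the variance and separated the groups. Its scores ran from -48.0 to -19.5 in MCAO and from 22.9 to 40.7 in controls, with MCAO 2 and control 2 at the extremes. The second, on which MCAO 2 and control 2 stood apart from the other 4 libraries, held 19.6%. Astrocyte markers were abundant in every library, with summed levels of 33231 to 44284 scaled reads in MCAO and 34226 to 56996 in controls over 13 genes. Neuron markers were abundant too, at 23536 to 27884 in MCAO and 25778 to 29847 in controls over 14 genes, so a motor gene cannot be assigned to 1 cell type from its level here. No neuron marker was called by limma, at an unadjusted p under 0.05 or by edgeR or DESeq2. Limma and edgeR called none of the 13 astrocyte markers, of which 4 had a positive change and 9 a negative one, with a median of -0.23. At an unadjusted p under 0.05, 2 of the astrocyte markers lay lower, and DESeq2 called 1 lower. Without MCAO 2 and control 2, limma called 6 of them lower, and 231 of all genes. Microglia markers summed to 2597 to 3528 in MCAO against 715 to 962 in controls, with 12 of 16 called higher. Oligodendrocyte markers summed to 12811 to 16338 in MCAO against 8663 to 9808 in controls, with 6 of 12 called higher, and markers of reactive astrocytes to 7701 to 13065 in MCAO against 1097 to 1465 in controls, with 6 of 8 tested called higher. Cell cycle genes summed to 379 to 542 in MCAO against 170.1 to 212 in controls, with 5 of 8 tested called higher. Of these called markers, 4 of microglia, 2 of reactive astrocytes and 4 of the cell cycle had control means under 10 and passed the filter on low values only through MCAO, so these counts are partly fixed by the filter. In such bulk RNA, more or fewer cells of a type and more or less RNA per cell cannot be told apart.

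The 4 genes that rose are shown with the stretch from 250 bases before to 50 bases after an annotated RNA start, so that the promoters of the called genes can be compared. Sequences are from RefSeq, build GRCm38.p6, and run 5′ to 3′ along the gene. Capitals mark CCAAT or its reverse complement ATTGG, and GGAAGT or its reverse complement ACTTCC, a core often bound by the myeloid factor PU.1. The E-box CACGTG, the cell cycle element TTTGAA and the TATA box TATAAA were searched on both strands as well and were in none of the 4 printed windows, where no matches overlapped. Positions count from the start. The windows lie at chr17:33555457-33555756 on the plus strand, chr10:128493837-128494136 on the minus strand, chr17:70990467-70990766 on the minus strand and chr5:115300941-115301240 on the minus strand.
Myo1f: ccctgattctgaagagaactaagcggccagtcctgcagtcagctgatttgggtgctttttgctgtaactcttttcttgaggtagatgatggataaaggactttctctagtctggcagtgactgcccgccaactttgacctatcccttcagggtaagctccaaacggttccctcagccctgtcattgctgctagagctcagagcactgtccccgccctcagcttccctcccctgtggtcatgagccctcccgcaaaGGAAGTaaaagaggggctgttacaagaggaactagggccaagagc
Myl6: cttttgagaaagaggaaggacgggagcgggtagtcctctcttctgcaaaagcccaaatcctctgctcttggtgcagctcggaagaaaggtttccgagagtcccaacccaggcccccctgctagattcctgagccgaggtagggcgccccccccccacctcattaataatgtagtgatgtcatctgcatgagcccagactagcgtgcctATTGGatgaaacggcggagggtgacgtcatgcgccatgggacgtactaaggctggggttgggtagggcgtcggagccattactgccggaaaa
Myl12b: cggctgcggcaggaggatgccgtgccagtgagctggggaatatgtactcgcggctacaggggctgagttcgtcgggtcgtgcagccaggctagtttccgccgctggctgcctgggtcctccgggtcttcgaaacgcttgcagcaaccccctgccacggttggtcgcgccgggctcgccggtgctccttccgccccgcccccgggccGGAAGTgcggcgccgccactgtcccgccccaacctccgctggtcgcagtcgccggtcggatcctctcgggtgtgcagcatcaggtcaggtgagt
Dynll1: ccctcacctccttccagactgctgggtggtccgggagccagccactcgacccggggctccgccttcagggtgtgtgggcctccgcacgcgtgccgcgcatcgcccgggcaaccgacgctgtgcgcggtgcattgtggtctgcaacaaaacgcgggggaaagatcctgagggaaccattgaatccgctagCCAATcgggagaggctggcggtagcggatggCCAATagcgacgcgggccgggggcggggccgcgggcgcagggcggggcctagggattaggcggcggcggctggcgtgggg
The Myo1f window holds GGAAGT at position +6, just after the start, and no CCAAT on either strand. Dynll1 has CCAAT at -61 and -30, and Myl6 has ATTGG at -42, on the opposite strand. Myl12b holds GGAAGT at -44. A second annotated Myl6 start, at chr10:128492960-128493259 on the minus strand and not printed, has ACTTCC at -54. Such short matches are common: CCAAT on either strand was in 37.4% of the 32841 RefSeq windows of this length and in 23 of 67 windows of the 55 motor genes with an entry, and GGAAGT in 23.8% and in 15 of 67. CACGTG was in 7.15% of all windows and 4 of 67, TTTGAA in 17.9% and 6 of 67, and TATAAA in 13.6% and 6 of 67. A match is a description of the letters only, and whether any factor binds there was not measured.

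Myo1f, a long-tailed class 1 myosin found mainly in neutrophils, macrophages and microglia, had the largest change of the set. It stood at 37.1, 59.1 and 52.6 scaled reads in the MCAO animals, against 3.17, 1.77 and 4.53 in the controls. Every MCAO library was several times above every control, in raw terms 63, 19 and 79 reads in MCAO against 11, 1 and 3 in the controls. Means were 49.6 ± 11.3 scaled reads in MCAO and 3.16 ± 1.38 in controls (SD, n = 3 each), a log2 change of 3.64 with an SE of 0.48 and limma adjusted p = 0.000608 (95% interval 2.62 to 4.66). Per read of depth the pooled reads were 14.3 times as frequent in MCAO, with an exact 95% interval of 8.43 to 26.2 that covers counting error only. The gene lies on chromosome 17 at 33555707 to 33607764 (GRCm38.p6). It passed the filter on low values only through its MCAO libraries, and its log2 change depends on the pseudocount: 4.0 with 0.1 and 2.73 with 5.

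Microglia markers moved in the same direction as Myo1f, with 12 of 16 called higher. Among those not called were P2ry12 and Tmem119, with log2 changes of 1.00 and 0.65, whose groups overlapped. Tyrobp, the adaptor of several microglial surface receptors, had 87.7, 83.98 and 57.9 scaled reads in the MCAO animals, against 4.03, 1.77 and 13.6 in the controls, with a log2 change of 3.70. C1qb, a complement chain made by microglia, had 201, 171 and 209 scaled reads in the MCAO animals, against 11.5, 17.7 and 21.1 in the controls. Spi1, which encodes PU.1, had 23.5, 24.9 and 28.6 scaled reads in the MCAO animals, against 6.62, 1 and 6.04 in the controls, with a log2 change of 2.49 with an SE of 0.60 and limma adjusted p = 0.0394; control 2 is listed at the floor of 1. Tyrobp and Spi1, with control means of 6.46 and 4.55, passed the filter on low values only through MCAO. Over the microglia list the log2 changes had a median of 2.12. Of 12 listed markers of blood myeloid cells only Lyz2, lysozyme, and Csf3r, the G-CSF receptor of neutrophils, could be analysed; both were called higher, Csf3r after passing the filter on low values only through MCAO, with summed levels of 111 to 121 in MCAO against 14.4 to 24.1 in controls. The part of either cell type in the Myo1f result was not tested.

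None of the other 4 class 1 myosins was called. Myo1e, the widely expressed long-tailed relative of Myo1f, had 54.1, 40.4 and 91.2 scaled reads in the MCAO animals, against 32.2, 54.99 and 37.7 in the controls, so the groups overlapped (log2 change of 0.52 with an SE of 0.32 and limma adjusted p = 0.4). Over the 5 class 1 myosins tested the median change was 0.07.

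Among the genes of nonmuscle myosin-2, 2 light chains rose and no heavy chain was called; the difference between them was not tested. Myl6, the essential light chain of nonmuscle and smooth muscle myosin, had 471, 529 and 502 scaled reads in the MCAO animals, against 328, 252 and 356 in the controls. The lowest MCAO value was above the highest control. Means were 501 ± 28.8 scaled reads in MCAO and 312 ± 53.98 in controls (SD, n = 3 each) with a log2 change of 0.69 with an SE of 0.16 and limma adjusted p = 0.0303. With 1 library left out it was called in 1 of 6 fits, without control 3 (adjusted p = 0.0365 from limma, otherwise 0.0549 to 0.103), and without the intensity trend it was not called (0.165). Myl12b, a regulatory light chain whose phosphorylation switches nonmuscle myosin-2 on, had 417, 411 and 315 scaled reads in the MCAO animals, against 260.5, 199 and 213 in the controls. Its groups were also apart, at 381 ± 56.9 scaled reads in MCAO and 224 ± 32.4 in controls (SD, n = 3 each), with a log2 change of 0.76 with an SE of 0.17 and limma adjusted p = 0.0251. With 1 library left out it was called in 2 of 6 fits, without MCAO 3 or control 1 (limma adjusted p 0.0317 to 0.0837 over the 6), and without the intensity trend it was not called (0.156). Its close paralog and neighbour on chromosome 17, Myl12a, had 118, 90.2 and 127 scaled reads in the MCAO animals, against 73.7, 53.2 and 75.5 in the controls (log2 change of 0.72 with an SE of 0.22 and limma adjusted p = 0.0951). The groups did not overlap for Myl12a either, but it did not pass the threshold, and reads that match both paralogs could have been counted to either, so their separate values are uncertain. The other tested light chains, Myl9 and Myl6b, overlapped between the groups, with log2 changes of 0.63 (SE 0.54) and -0.03 (SE 0.42). For the list of 5, 2 were called higher and the median change was 0.69.

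**Figure D2:**
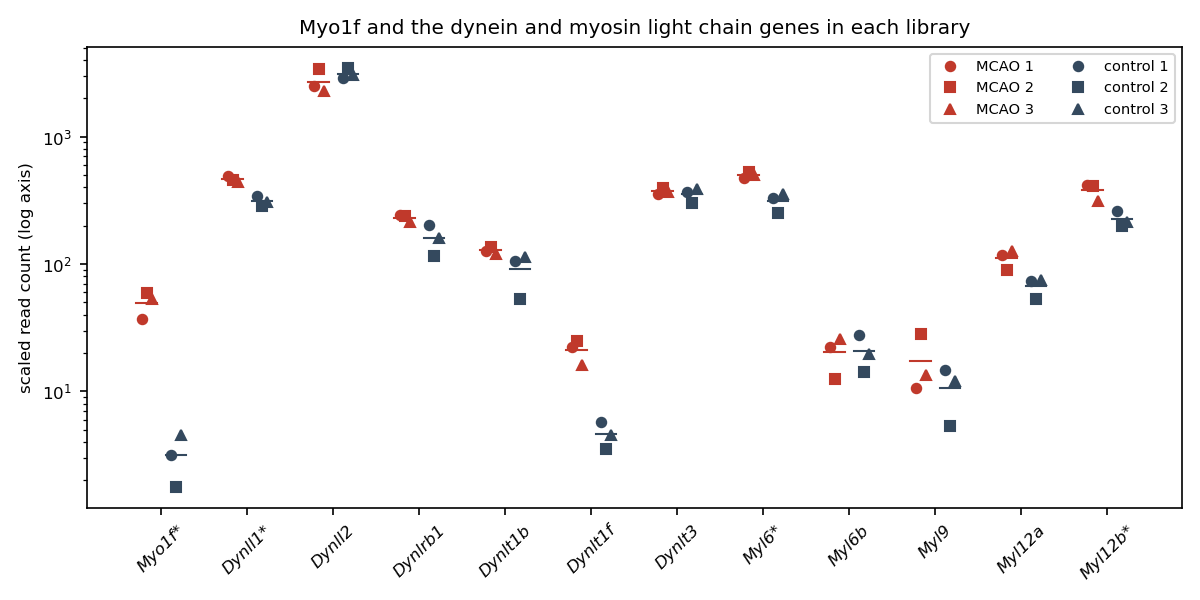
Scaled reads per library (log axis) for Myo1f and the 11 light chain genes, with the 3 MCAO animals (red) left of the 3 controls (dark) and a line at each group mean; asterisks mark called genes. Every MCAO value of Myl6, Myl12b and Dynll1 lies above every control value, and Dynll2 overlaps.

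The heavy chains of the same motor are Myh9, Myh10 and Myh14, which give nonmuscle myosin 2A, 2B and 2C. Myh14 had 179, 243 and 201 scaled reads in the MCAO animals, against 279, 328 and 287 in the controls. Every MCAO value was below every control, with means of 208 ± 32.1 scaled reads in MCAO and 298 ± 26.6 in controls (SD, n = 3 each), yet the gene did not pass the threshold (log2 change of -0.53 with an SE of 0.16 and limma adjusted p = 0.0971, 95% interval -0.87 to -0.18). Myh10 had 738, 1390.3 and 869 scaled reads in the MCAO animals, against 1137, 1655 and 1055 in the controls and overlapped (log2 change of -0.38 with an SE of 0.22 and limma adjusted p = 0.373). Myh9 had 134, 152 and 117 scaled reads in the MCAO animals, against 123, 193 and 151 in the controls (log2 change of -0.20 with an SE of 0.20 and limma adjusted p = 0.62). None of the 3 was called by limma, 1 had an unadjusted p under 0.05, and edgeR and DESeq2 called none; the median change was -0.38. Without MCAO 2 and control 2, the shallowest library of each group, Myh14 was called lower (log2 change -0.57, adjusted p = 0.0459).

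Dynll1 and Dynll2 encode the near-identical LC8 light chains, which bind dynein and many other proteins. Dynll1 had 490.1, 460.3 and 442 scaled reads in the MCAO animals, against 344, 287 and 305 in the controls. The groups did not overlap, and means were 464 ± 24.1 scaled reads in MCAO and 312 ± 29.3 in controls (SD, n = 3 each), with a log2 change of 0.57 with an SE of 0.14 and limma adjusted p = 0.0438. The call was lost in each of the 6 fits with 1 library left out (limma adjusted p 0.0804 to 0.126), without the intensity trend (0.175) and with a trend on gene span removed (0.254). Dynll2 had 2481, 3372 and 2265 scaled reads in the MCAO animals, against 2871, 3465 and 3054 in the controls and was not called (log2 change of -0.23 with an SE of 0.18 and limma adjusted p = 0.526). Dynll1 therefore made up 16.5%, 12.01% and 16.3% of the pair's reads in MCAO against 10.7%, 7.66% and 9.07% in controls, or 14.9 ± 2.54% in MCAO and 9.15 ± 1.53% in controls (SD, n = 3 each). The share was higher by 5.8 percentage points without overlap, with p = 0.1 in a two-sided exact permutation test, the smallest value that 3 against 3 animals allow.

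None of the Tctex and roadblock light chains was called. Dynlrb1, a roadblock chain, had 244, 236 and 212 scaled reads in the MCAO animals, against 201, 115 and 160.0 in the controls, without overlap (log2 change of 0.57 with an SE of 0.20 and limma adjusted p = 0.133). Dynlt1f, a Tctex-type copy on chromosome 17, had 22.4, 24.9 and 15.99 scaled reads in the MCAO animals, against 5.76, 3.55 and 4.53 in the controls. These are 38, 8 and 24 reads in MCAO against 20, 2 and 3 in controls (log2 change of 1.97 with an SE of 0.52 and limma adjusted p = 0.0559). It passed the filter on low values only through MCAO and shares near-identical sequence with Dynlt1b, so its count is uncertain; limma with a pseudocount of 5 (adjusted p = 0.0431), edgeR (0.0281) and DESeq2 (0.0305) called it. Dynlt1b itself had 126, 137 and 119.9 scaled reads in the MCAO animals, against 105, 53.2 and 113 in the controls, without overlap and with a log2 change of 0.56 (limma adjusted p = 0.244). Dynlt3 overlapped, with a log2 change of 0.09. In all, 1 of the 6 dynein light chains was called, 5 had a positive change and the median was 0.57.

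The larger subunits of dynein overlapped between the groups. Dync1h1, the heavy chain with the motor domain of cytoplasmic dynein 1, had 825, 830.4 and 1026 scaled reads in the MCAO animals, against 939, 1261 and 994 in the controls (log2 change of -0.25 with an SE of 0.16 and limma adjusted p = 0.423). The light intermediate chains Dync1li1 and Dync1li2, which join dynein to cargo adaptors, had log2 changes of -0.19 (SE 0.18) and 0.03 (SE 0.16), not called. Dync2h1 and Dync2li1, of the dynein that runs in cilia, had log2 changes of -0.02 (SE 0.25) and 0.27 (SE 0.30). Of these 5 genes and the intermediate chains Dync1i1 and Dync1i2, 7 in all, limma called none, none had an unadjusted p under 0.05, and edgeR and DESeq2 called none.

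None of the dynactin genes was called. Dctn2, the dynamitin subunit, had 443, 541 and 523 scaled reads in the MCAO animals, against 352, 263 and 444 in the controls. For Dctn3, a subunit of the same shoulder, the values were 136, 159 and 112 scaled reads in the MCAO animals, against 92.7, 115 and 95.1 in the controls. Control 3 of Dctn2 lay just above MCAO 1, Dctn3 overlapped as well, and neither gene passed (log2 change of 0.54 with an SE of 0.18 and limma adjusted p = 0.13 for Dctn2, 0.41 and 0.258 for Dctn3). Dctn1, the p150Glued subunit that binds both dynein and microtubules, had 1033, 1309 and 1233 scaled reads in the MCAO animals, against 1228, 1879 and 1077 in the controls (log2 change of -0.19 with an SE of 0.19 and limma adjusted p = 0.626). Of the 6 dynactin genes, 2 had an unadjusted p under 0.05, both higher, and limma, edgeR and DESeq2 called none. Dctn2 and Kif5a overlap on chromosome 10 in the RefSeq annotation, and since the strand setting of the counting is not given, reads from the shared stretch cannot be told apart.

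The 11 tested light chains of dynein and myosin differ from the other 60 motor genes in gene length as well as in change. This split was not among the planned comparisons. The group of 11 holds 3 of the called motor genes, and the kinesin light chains are among the other 60. Their median genomic span was 8741 bp against 50519 bp for the other 60, and their median log2 change 0.57 against -0.10, with 9 of 11 positive against 23 of 60. Over all 12356 tested genes with a RefSeq span, the median change was lower in longer genes, at 0.21, 0.04, -0.06 and -0.19 in 4 bins of 3089 genes from short to long, and 4.63%, 2.43%, 1.36% and 0.550% of the genes in these bins were called higher. The motor genes followed the same order, with 9, 16, 18 and 28 members in the bins and medians of 0.57, 0.06, -0.05 and -0.19, and 7 light chains sat in the shortest bin and 4 in the next. The Spearman correlation between span and change was -0.36 over all genes, -0.42 over the 71 motor genes and -0.24 over the 60 without light chains; these are descriptions across genes, which share libraries and are not independent. With the trend on span removed from all genes, Myl12b (log2 change 0.72, adjusted p = 0.0312) and Myo1f were still called, while Myl6 (0.43, adjusted p = 0.152) and Dynll1 (0.34, adjusted p = 0.254) were not and Kifc2 was called lower (-0.64, adjusted p = 0.0353).

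**Figure D3:**
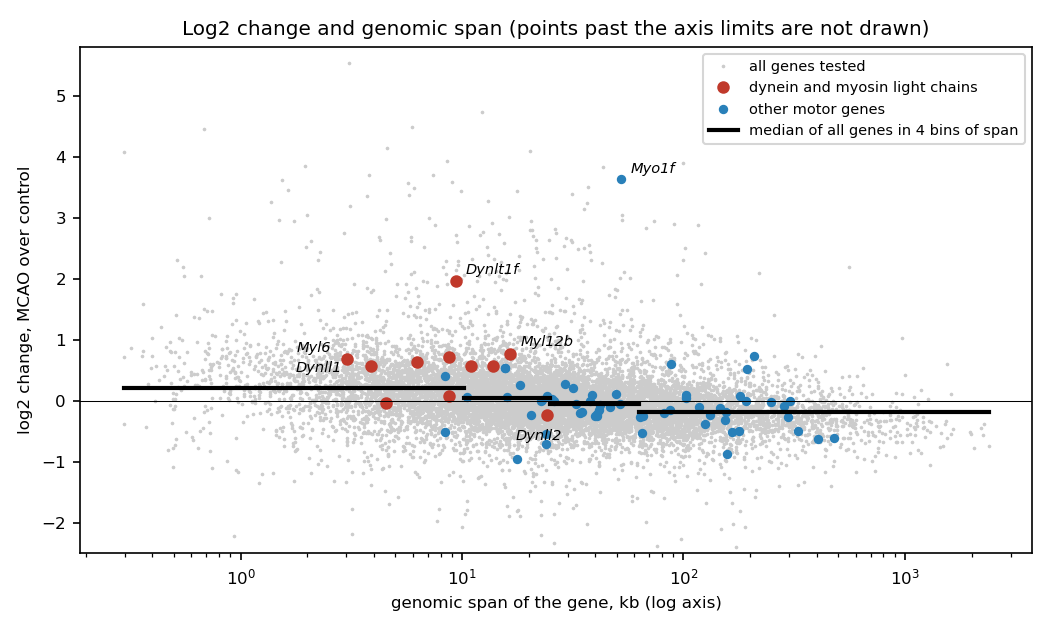
Log2 change, MCAO over control, against genomic span (log axis, kb) for all tested genes with a span (grey), light chains of dynein and myosin (red) and other motor genes (blue), with black lines at the median of each of the 4 bins of span. The bin medians run from 0.21 in the shortest genes to -0.19 in the longest, and the light chains lie in the shorter 2 bins.

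A library also moved with the split between light chains and the rest. Control 2 was the lowest control for 10 of the 11 light chains and the highest control for 42 of the other 60 genes. Among MCAO animals, MCAO 2 was highest for 6 of the 11 and 27 of the 60. Control 2 also had the lowest astrocyte marker sum of the controls, 34226 against 56996 in control 1 and 53058 in control 3, and the highest neuron marker sum, 29847 against 25778 and 26398. With control 2 alone left out, or MCAO 2 alone, Myo1f was the only motor gene called, so the 3 light chain calls were lost. Without MCAO 2 and control 2 together, Dynll1, Myl6 and Myl12b were all called. That fit, chosen after seeing the data, called 559 genes in all, against 387 in the main fit. Myo1f was called in all 6 fits with 1 library left out, with limma adjusted p from 0.000606 to 0.0166. The oligodendrocyte, reactive astrocyte and microglia markers given above were higher in the same MCAO libraries as the light chains, and their part in the light chain result was not tested.

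**Figure D4:**
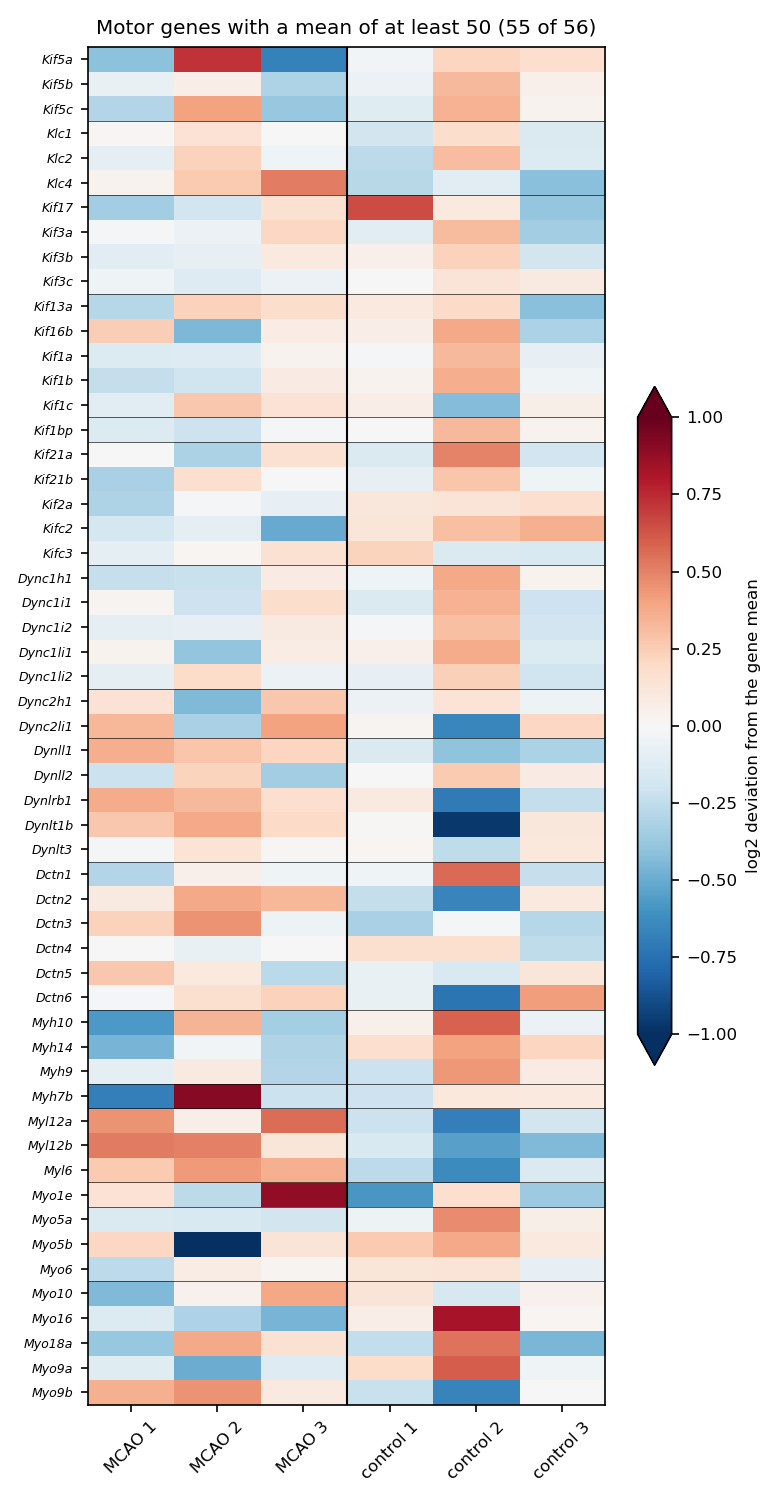
Heat map of 55 of the 56 motor genes with a mean of at least 50 scaled reads (rows, by role) in the 3 MCAO and 3 control libraries (columns). Colour is the deviation from the gene's mean over the 6 libraries on the log2(scaled reads + 1) scale, red above and blue below. Control 2 is blue for Dynlrb1, Dynlt1b and the Myl genes and red for most heavy chains. For the Myl genes of the map all 3 controls lie below the mean.

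Kinesin-1 is the main motor of fast axonal transport, and none of its heavy chains was called. Kif5a, the neuronal heavy chain, had 6965, 15331 and 5804 scaled reads in the MCAO animals, against 9117, 10777 and 10446 in the controls. MCAO 2 was the highest of all 6 libraries and the other MCAO values were the lowest, so the mean of 9366 ± 5198 scaled reads in MCAO and 10113 ± 879 in controls (SD, n = 3 each) covers a wide spread (log2 change of -0.24 with an SE of 0.30 and limma adjusted p = 0.705, 95% interval -0.89 to 0.41). Without MCAO 2 and control 2 the change was -0.62 (adjusted p = 0.0317) and without MCAO 3 it was 0.03. Kif5b, the heavy chain of most tissues, had 855, 942 and 729 scaled reads in the MCAO animals, against 863, 1128 and 934 in the controls (log2 change of -0.21 with an SE of 0.16 and limma adjusted p = 0.494). The other neuronal form, Kif5c, had 3637, 5906 and 3442 scaled reads in the MCAO animals, against 4110.3, 5696 and 4586 in the controls (log2 change of -0.18 with an SE of 0.22 and limma adjusted p = 0.704). All 3 changes were negative with a median of -0.21; limma called none, none had an unadjusted p under 0.05, and edgeR and DESeq2 called none.

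The kinesin light chains, which bind cargo, were not called either. Klc1 had 1854, 2034 and 1840.3 scaled reads in the MCAO animals, against 1616, 2077 and 1660.0 in the controls. Klc2 had 521, 656 and 542 scaled reads in the MCAO animals, against 467, 692 and 507 in the controls. Both overlapped, and log2 changes were 0.11 (95% interval -0.23 to 0.44) and 0.06 (-0.30 to 0.42). Klc4, a further light chain, had 77.1, 90.2 and 107 scaled reads in the MCAO animals, against 61.9, 69.2 and 55.8 in the controls; the groups did not overlap, but the change of 0.54 (SE 0.21) was not called (limma adjusted p = 0.19). Klc4 and Klc1 each overlap another gene in the annotation, Mrpl2 and Xrcc3, with the same limit on strand.

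Kinesin-2 and kinesin-3 carry cilium components, synaptic vesicle precursors and mitochondria. Kif1a, the kinesin-3 motor of synaptic vesicle precursors, had 3039.9, 3051 and 3414 scaled reads in the MCAO animals, against 3306, 4178 and 3157 in the controls (log2 change of -0.15 with an SE of 0.17 and limma adjusted p = 0.663). Kif1b, which moves mitochondria and vesicle precursors, had 1708, 1760.4 and 2133 scaled reads in the MCAO animals, against 2064, 2592 and 1960.3 in the controls (log2 change of -0.24 with an SE of 0.17 and limma adjusted p = 0.468). The groups overlapped for both. Kif13b, a kinesin-3 with low counts, had 15.3, 6.22 and 20.6 scaled reads in the MCAO animals, against 27.9, 19.5 and 25.7 in the controls, and its change of -0.88 carried an SE of 0.46. Kif3b, which pairs with Kif3a in the main ciliary kinesin-2, had a log2 change of -0.07 (SE 0.16) and Kif17, a kinesin-2 of cilia and dendrites, one of -0.25 (SE 0.29). Kif3c, a neuronal kinesin-2, had 641, 603 and 635 scaled reads in the MCAO animals, against 662, 724 and 703 in the controls; all MCAO values were below all controls, with a log2 change of -0.15 (adjusted p = 0.566, limma). Over the 10 tested genes of both families limma, edgeR and DESeq2 called none and none had an unadjusted p under 0.05.

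Kifc2, a kinesin with its motor at the C terminus that was described from brain, came closest to being called lower in the main fit. It had 867, 914 and 691 scaled reads in the MCAO animals, against 1063, 1206 and 1251 in the controls. The groups were apart, with means of 824 ± 118 scaled reads in MCAO and 1173 ± 98.2 in controls (SD, n = 3 each) and a log2 change of -0.52 with an SE of 0.15 and limma adjusted p = 0.0865 (95% interval -0.84 to -0.19). DESeq2 called it lower, as did limma without MCAO 2 and control 2 (-0.57, adjusted p = 0.0324); Kifc2 overlaps the gene Cyhr1 in the annotation. Among the kinesins of other roles, Kif21a and Kif21b, which regulate microtubule growth, had uncalled log2 changes of -0.10 (SE 0.19) and -0.11 (SE 0.17). Kif7, the ciliary kinesin of Hedgehog signalling, and Kif26b, a kinesin without a working ATPase, had uncalled log2 changes of -0.96 (SE 0.60) and -0.63 (SE 0.31). Kif2a, a microtubule depolymerase, and Kif1bp, the kinesin-binding protein that is named like a motor but is none, had MCAO values all below the controls, with log2 changes of -0.27 and -0.24 and limma adjusted p = 0.379 and 0.402.

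The 2 mitotic kinesins of the table were too low to be tested. Kif20a, which acts in cytokinesis, had 10.0015, 12.4 and 17.98 scaled reads in the MCAO animals, against 2.01, 5.32 and 1.51 in the controls. Those are 17, 4 and 27 reads in MCAO against 7, 3 and 1 in controls, 5.82 times as frequent per read of depth in MCAO (exact 95% interval 2.98 to 12.4, counting error only). With the filter on low values removed, its limma adjusted p was 0.119. Kif4, the chromosome-bound kinesin, had 1.76, 18.7 and 15.3 scaled reads in the MCAO animals, against 2.88, 3.55 and 9.05 in the controls, a ratio of 2.37 (1.29 to 4.49). Mki67, a general marker of dividing cells, had 33.5, 34.2 and 35.3 scaled reads in the MCAO animals, against 3.45, 3.55 and 6.04 in the controls, and whether dividing cells account for the kinesin counts was not tested. Kif20a overlaps Brd8 and Cdc23 in the annotation. Kif19a and Klc3 were also too low to test: Klc3 had 3.53, 1 and 7.33 scaled reads in the MCAO animals, against 10.6, 17.7 and 6.04 in the controls, with MCAO 2 at the floor of 1. Kif19a had 7.06, 21.8 and 9.32 scaled reads in the MCAO animals, against 10.6, 3.55 and 7.55 in the controls.

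Unconventional myosins of classes 5 and 6, which carry cargo on actin, were not called. Myo5a, the dendritic and vesicle motor, had 1110.2, 1107 and 1079.7 scaled reads in the MCAO animals, against 1187, 1703 and 1281 in the controls. All MCAO values lay below all controls and within 1079.7 to 1110.2, while control 2 stood far above the other controls (log2 change of -0.32 with an SE of 0.16 and limma adjusted p = 0.287). Myo6, the myosin that walks towards the minus end of actin, had a log2 change of -0.11 (SE 0.15) and Myo5b, a recycling endosome motor, one of -0.50 (SE 0.28). The pair of class 9 myosins, which carry a domain that switches small GTPases off, had changes of opposite sign, and the difference between them was not tested. Myo9a had 214, 165 and 212 scaled reads in the MCAO animals, against 264, 355 and 226 in the controls (log2 change of -0.50 with an SE of 0.19 and limma adjusted p = 0.166). Myo9b had 116, 124 and 97.2 scaled reads in the MCAO animals, against 77.7, 56.8 and 90.5 in the controls (log2 change of 0.60 with an SE of 0.22 and limma adjusted p = 0.154). For each gene the groups did not overlap, and neither was called.

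Myo16, a brain myosin, had 77.1, 68.4 and 61.3 scaled reads in the MCAO animals, against 88.6, 151 and 86.02 in the controls, below every control in every MCAO animal but uncalled (log2 change of -0.60 with an SE of 0.24 and limma adjusted p = 0.188). Myo18a, a myosin of the Golgi and cytoskeleton with little motor activity, had a log2 change of 0.10 (SE 0.24). Myo18b, a muscle relative, had few reads and a change of 0.73 (SE 0.56); with Myo1f and Dynlt1f it is 1 of 3 tested members whose control mean was under 10. Among heavy chains of striated muscle, Myh7, the slow and cardiac form, had 33.5, 55.99 and 19.98 scaled reads in the MCAO animals, against 48.3, 53.2 and 66.4 in the controls (log2 change of -0.71 with an SE of 0.34 and limma adjusted p = 0.271). Myh3, the embryonic form, had a log2 change of -0.55 (SE 0.59). For Myh7b, with 66.5, 202 and 92.6 scaled reads in the MCAO animals, against 92.96, 115 and 115 in the controls, MCAO 2 stood far above the other 5 libraries. These paralogs share sequence, so low counts among them are uncertain.

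Sums over families were compared by library. The 28 kinesin genes, without Kif1bp, summed to 22753, 34158 and 22391 scaled reads in MCAO against 26211, 32185 and 27863 in controls. The 13 dynein genes summed to 6264, 7154 and 6281 in MCAO against 6506, 7594 and 6570.4 in controls, and the 6 dynactin genes to 2209.7, 2582 and 2426 in MCAO against 2268, 2813 and 2175 in controls. For the 27 myosin genes the sums were 5042, 6273 and 5453 in MCAO against 5526, 7032 and 5386 in controls. In every family the MCAO range overlapped the control range. The balance between family members was also measured within each library, which cancels the scale factor. Kif5b made up 6.34 ± 1.81% of Kif5 reads in MCAO and 6.13 ± 0.280% in controls (exact permutation p = 1), and Myh9 10.4 ± 2.13% of Myh9, Myh10 and Myh14 in MCAO and 8.99 ± 1.07% in controls (p = 0.5, same exact test). Dync1i2 made up 45.2 ± 2.36% of the dynein intermediate chains in MCAO and 46.1 ± 1.495% in controls (exact p = 0.6), and Myo5a 68.3 ± 2.86% of Myo5a and Myo6 in MCAO and 71.3 ± 3.68% in controls (exact p = 0.2; SD, n = 3 each throughout).

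**Figure D5:**
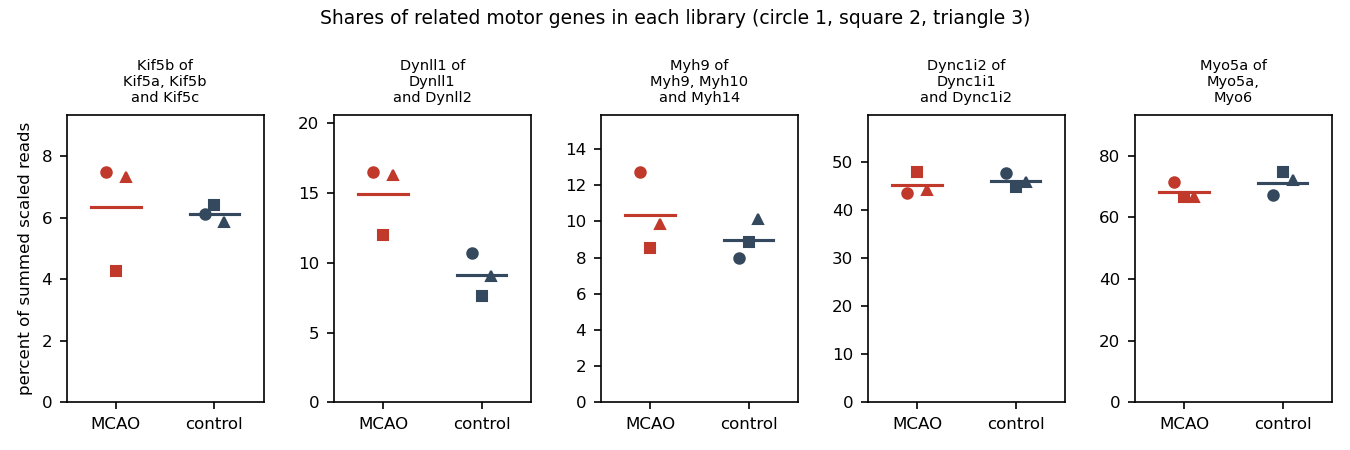
Share of 1 gene in the summed scaled reads of itself and its relatives (percent, 1 panel per share), 1 point per animal, MCAO left of control, line at the mean. Of the 5 shares, only that of Dynll1 separates the groups, at 12.01% to 16.5% in MCAO and 7.66% to 10.7% in controls.

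Among genes that work with the motors, in lists of 27, 20, 6 and 24 tested genes, 1 was called, where 3.08% of all tested genes were. Kif1bp, also 1 of the 71 tested genes of the motor set, is in the first of these lists. Of 27 tested adaptors and regulators, limma called 0, 4 had an unadjusted p under 0.05 (1 higher, 3 lower), and edgeR and DESeq2 called 0; Clstn1, the calsyntenin that links kinesin-1 to vesicles, had the most reads of the list, with 4076, 3384 and 3718 scaled reads in the MCAO animals, against 3643, 3936 and 3945 in the controls. All 20 intraflagellar transport genes were uncalled by limma, edgeR and DESeq2, with none at an unadjusted p under 0.05 and a median change of 0.01. Of the axonemal dyneins 6 could be tested and none was called by any of the 3 tools, though 3 lay lower at an unadjusted p under 0.05, with a median of -0.15. Among 24 regulators of myosin-2 and myosin-5, Rhoc, a small GTPase that promotes actomyosin contraction, rose: it had 109, 112 and 165 scaled reads in the MCAO animals, against 56.1, 31.9 and 54.3 in the controls (log2 change of 1.44 with an SE of 0.26 and limma adjusted p = 0.00743). The other 23 were not called, and the list went both ways, with 14 positive changes and 10 negative ones. At an unadjusted limma p under 0.05, 3 of the 24 lay higher and 2 lower. The list's median was 0.13 beside -0.01 over all genes.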

How the data were processed

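The authors deposited a normalised signal per gene and library. Division by 1 step per library, from 0.288 to 3.11, gave whole reads within 0.1 read for at least 99.9% of values; values under 1 are listed as 1. A count of 0 allows up to 3 reads (0.863 to 9.33 scaled reads by library; intervals and floors cover counting error only). Per the submitters' processing notes, DESeq2, R 3.3.1, Partek 6.6, HISAT2 and CASAVA 1.8 were used with build mm10. Not given in the sources used here are the counting step, its strand setting and filter, the scale factors, and how 2 technical replicates per animal became 1 column.

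Changes were tested with limma 3.58.1 in R 4.3.3 (intensity trend) on log2(scaled reads + 1), a scale that understates changes of low genes, over 12549 genes with a mean of at least 10. Benjamini-Hochberg adjusted p under 0.05 was the threshold. Alternatives were other pseudocounts, filters, scalings and moderation, edgeR 4.0.16 and DESeq2 1.42.0 on recovered reads, and leaving out libraries. Scripts were tested on simulated data.

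The members and lists were chosen with earlier results of these data known. Named members were those called, the 2 with the most reads and the 2 largest changes in each role list, and a set of main motors (Kif11 is not analysed here). Dynlrb1, Dynlt1b, Dynlt3, Myl6b, Myl9, Kif1bp, Kif2a, Myo9b, Klc3, Kif19a, Dync1i1 and Dync1i2 were named after their values were seen. Spans are RefSeq, GRCm38.p6. Levels of different genes are not compared, since transcript lengths were not used. Results for 1 tested member are not reported here.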

Additional observations from a re-analysis of the deposited data

How the results depend on the processing

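The 387 genes called at the main settings became 157 without the intensity trend in limma and 144 to 304 with 1 library left out. They became 559 without MCAO 2 and control 2 together, and 310 with the span trend removed. For motor genes called higher, 4 at the main settings, the count became 2 without the trend (Myo1f, and Dynlt1f, which was not among the 4), 2 with the span trend removed, and 1 to 2 with 1 library left out. It became 5, with Dynlt1f added, with a pseudocount of 5, with no filter on the mean, in edgeR and in DESeq2. Motor genes called lower numbered 0 in the main fit, 1 in DESeq2, 3 without MCAO 2 and control 2, and 1 with the span trend removed. Among all genes of the main fit, 99, 161, 231 and 80 were called lower in these settings, in the same order. The last 2 settings were chosen after seeing the data. The Kif5b share difference of 0.212 percentage points ranged from -0.351 to 1.26 with 1 library left out.

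Uncalled log2 changes near 0 turned sign. Without MCAO 2 and control 2, Dync1li1 was 0.10, Dync2h1 0.26, Kif21a 0.25, Kif3b 0.057 and Myh7b -0.39. With the span trend removed, Dync2h1 was 0.21, Kif21a 0.057, Kif5c 0.0043, Klc2 -0.042 and Myo6 0.066. Dync2h1 was 0.11 in edgeR and 0.088 in DESeq2, and Myh7b was -0.0016 with quantile scaling. With 1 library left out the ranges were -0.36 to 0.044 for Dctn1, -0.064 to 0.16 for Dync1li2, -0.16 to 0.20 for Dync2h1, -0.50 to 0.018 for Kif17, -0.22 to 0.12 for Kif21a, -0.21 to 0.029 for Kif21b, -0.17 to 0.032 for Kif3b, -0.67 to 0.035 for Kif5a, -0.055 to 0.23 for Klc2, -0.44 to 0.35 for Myh7b and -0.10 to 0.40 for Myo18a. The cause was not tested. None of the 4 called motor genes changed direction in a setting that tested it.

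No paired analysis was possible because the replicate numbers follow record order only and pair no animals. With 882263 reads in MCAO 2, members under about 10 scaled reads rest on few reads there. Nothing says whether the animals were handled in 1 batch.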
